A study of Homo sapiens with 2 samples.

Results

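Bone morphogenetic protein (BMP) signalling was described in Cal-27 cells through 10 genes, namely the ligand genes BMP2, BMP4, BMP7 and INHBA, the target genes ID1, ID2 and ID3, and the feedback inhibitors SMAD6, SMAD7 and BAMBI. They were taken by gene name, with no threshold on a measured value, and all 10 were found among the 20263 genes of the deposited tables. Cal-27 is an established human line derived from a tongue squamous carcinoma. The scramble shRNA library came from Cal-27 cells stably transduced with a control vector (sh-scramble). The other came from Cal-27 cells stably transduced with an shRNA against HIPK2 (GV-248-HIPK2-sh), a nuclear serine/threonine kinase. Both were grown in DMEM with fetal bovine serum, and no other agent is named. The labels do not say whether each stable line was a clone or a pool, and only 1 shRNA against HIPK2 is named. Each group held 1 library. No difference can therefore be set against the spread between replicates, p-values are left out, and every comparison is between these libraries rather than between the conditions.

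BMPs and activins are secreted dimers of the TGF-beta superfamily that bind pairs of type I and type II serine/threonine kinase receptors. BMP receptors phosphorylate SMAD1, SMAD5 and SMAD9, and activin receptors phosphorylate SMAD2 and SMAD3. Either set joins SMAD4 and enters the nucleus. The ID genes and the inhibitors SMAD6, SMAD7 and BAMBI are common direct outputs, and the inhibitors close a negative feedback loop. In stratified epithelia the ID proteins are known for restraining differentiation by blocking basic helix-loop-helix factors.

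The total was 28064923 counts in the scramble library and 26450251 counts in the other. The targeted gene, HIPK2 (ENSG00000064393), had 110 and 218 counts, which is 4.01 and 8.06 CPM (counts scaled to library size by the TMM method) and a CPM ratio of 2.01 with a counting interval from 1.59 to 2.55. On the TPM scale that the authors deposited, which is per transcript length, HIPK2 was 1.63 and 0.873. The transcript length implied by its count and FPKM was 4120 bases in the scramble library and 16481 bases in the other. The counts of HIPK2 go against the label, while its TPM, 1.86-fold lower in that sample, goes with it, so the measures disagree. That is why the sample appears in what follows as the library labelled HIPK2 shRNA. All 7 squamous epithelial markers reached 1 CPM, with sums of 3416 and 3024 CPM. Of these, 6 had a smaller CPM in the second library, and TP63 alone had a larger one. KRT5 was at 2766 and 2554 CPM and TP63 at 62.1 and 64.7 CPM, while KRT14, at 11.6 and 1.63 CPM, and CDH1, at 184.1 and 87.3 CPM, were over 2-fold lower in the second library. Of the fibroblast markers 3 of 6 were at 1 CPM or more, with sums of 18.2 and 21.5 CPM. Of the leukocyte markers 2 of 5 were, both lower in the second library, with sums of 28.1 and 23.9 CPM, and PTPRC and CD3E had 0 counts. Of the endothelial markers 2 of 3 were, summing to 56.1 and 28.5 CPM, nearly all CDH5, while PECAM1 had 0 counts. The part of these differences in the results below was not tested. In a bulk culture, fewer cells of a type and less RNA per cell cannot be told apart.

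Across the 10 genes, the library labelled HIPK2 shRNA was higher in 7 and lower in 3. Among those that reached 1 CPM in either library 5 were higher and 3 lower, against 5909 and 5904 of all 11813 such genes. Each of the 10 kept its direction in the deposited TPM, while BMP4 changed sign when log2 ratios were corrected for transcript length and GC content. BMP7 was 6.55 times higher (4.24 to 10.5) and ID1 1.76 times higher (1.65 to 1.87), while INHBA was 1.91-fold lower (1.56 to 2.34). These are ratios of CPM with 95% exact intervals. The intervals describe counting error alone, and since the reads carry no molecular identifiers they cannot be taken as separate molecules. A gene counted as past 2-fold when its log2 ratio, taken on CPM + 1 with the scramble library below the line, was at least 1 or at most -1. This rule speaks of size only, without any test, and it understates the ratios of low genes. By this rule 1 of the 8 that reached 1 CPM in either library, BMP7, was past 2-fold higher and 0 were past 2-fold lower. These counts were the same without that filter. Of the 11813 genes that reached 1 CPM in either library, 3.26% passed 2-fold upward, 2.87% downward and 6.13% in either direction. At 1.5-fold BMP7 and ID1 were higher and INHBA lower, where 10.6% and 9.96% of the same genes passed. Of the 10 genes 8 reached 1 CPM, and BMP7 and SMAD6 did so only in the library labelled HIPK2 shRNA and SMAD7 only in the scramble library, so each of these had to differ. ID2 and BAMBI stayed under 1 CPM and were not counted, although the log2 ratio of BAMBI, 0.70, was past 1.5-fold. The median log2 ratio over those 8 was 0.27, against 0.00023 over all genes at 1 CPM or more. The counting interval of the ratio lay apart from 1 for 8 of the 10 genes, 7 above and 1 below, and for 6 of the 8 that reached 1 CPM. It did so for 67.4% of all genes at 1 CPM or more, so at this depth an interval apart from 1 is common.

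**Figure D1:**
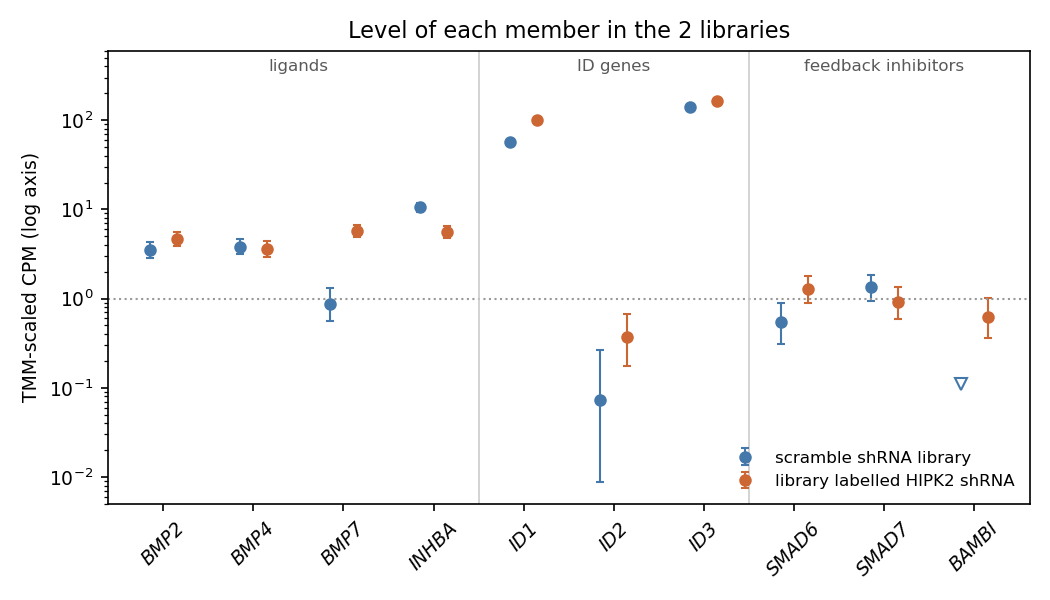
The level of each gene is shown in TMM-scaled CPM on a log axis, with blue points for the scramble shRNA library, orange points for the library labelled HIPK2 shRNA and bars for 95% exact Poisson intervals. The open triangle marks 0.109 CPM, the floor of 3 counts set for the 0 counts of BAMBI, and the dotted line is 1 CPM. ID1 and ID3 stand at 56.8 CPM or more in both libraries, and every other gene is at 10.6 CPM or less.

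The ligands were all low. BMP7 (ENSG00000101144, chromosome 20, 57168748 to 57266629, minus strand, GRCh38), a ligand known for its part in kidney and epithelial development, had 24 counts in the scramble library against 155 in the library labelled HIPK2 shRNA. Those are levels of 0.875 CPM (0.561 to 1.30) and 5.73 CPM (4.86 to 6.70). The intervals do not overlap, and BMP7 was lower in the scramble library than in the other. Its log2 ratio was 1.84, and 0.66% of the genes at 1 CPM or more had a higher one. In TPM BMP7 was 0.303 and 2.29, a ratio of 7.54.

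BMP2 (chromosome 20, 6767664 to 6780280, plus strand), a ligand known for inducing bone, had 97 and 127 counts, or 3.54 and 4.69 CPM. It was 1.33 times higher in the library labelled HIPK2 shRNA, with an interval of 1.01 to 1.75 that ends close to 1. BMP4 (chromosome 14, 53949736 to 53958761, minus strand), the closest relative of BMP2, had 105 and 98 counts, or 3.83 and 3.62 CPM. Its ratio of 0.946 (0.711 to 1.26) did not differ from 1 beyond counting error. BMP2 was thus a little above its scramble level and BMP4 close to it.

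The make-up of the BMP ligand counts differed accordingly, and this measure does not depend on scaling between libraries. BMP7 gave 10.6% (6.92 to 15.4, Clopper-Pearson) of the 226 counts of BMP2, BMP4 and BMP7 in the scramble library. In the library labelled HIPK2 shRNA it gave 40.8% (35.8 to 45.9) of 380 counts. The share of BMP4 was 46.5% (39.8 to 53.2) and 25.8% (21.5 to 30.5). BMP2 gave 42.9% (36.4 to 49.7) and 33.4% (28.7 to 38.4). The highest share of counts was that of BMP4 in the scramble library and of BMP7 in the other, but in both its interval overlapped that of BMP2. Shares of counts also depend on transcript length. In TPM BMP7 gave 5.98% and 32.3% of the summed TPM, and BMP4 gave 67.1% and 40.3%. BMP4 thus had the highest share of TPM in both libraries.

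INHBA (ENSG00000122641, chromosome 7, 41685114 to 41705834, minus strand) encodes the chain that forms activin A, which signals through SMAD2 and SMAD3 and not through the BMP SMADs. It had 292 and 151 counts, or 10.6 CPM (9.46 to 11.9) and 5.58 CPM (4.73 to 6.54). The scramble library was the high one and the intervals do not overlap. In TPM INHBA was 2.60 and 1.85, 1.41-fold lower, a smaller difference than in CPM. The transcript length implied for INHBA was 6846 bases in the scramble library and 5392 bases in the other, a ratio of 0.788. BMP2 by comparison had a ratio of implied lengths of 0.998.

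**Figure D2:**
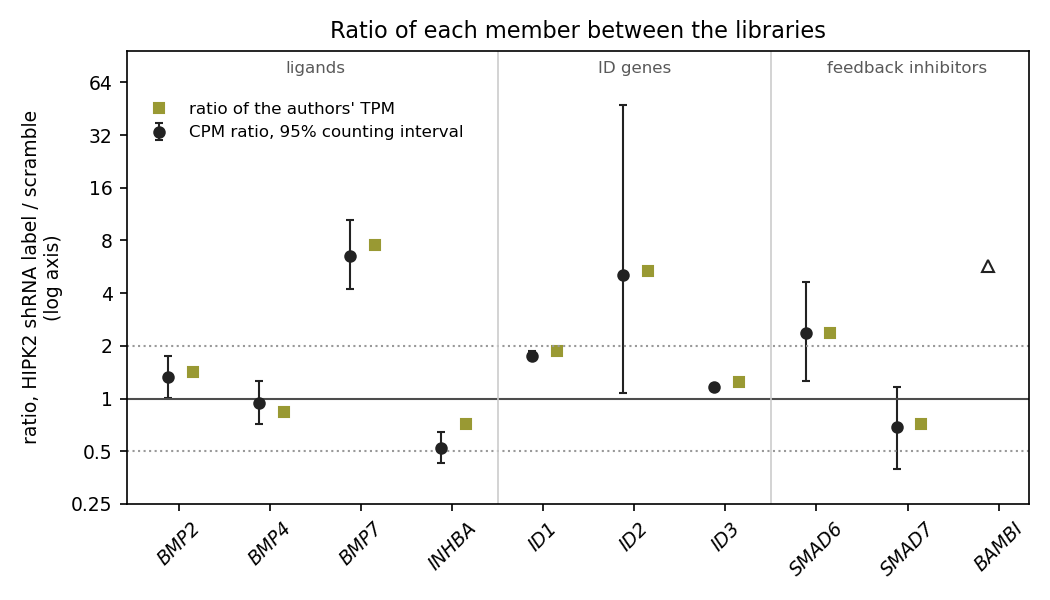
The ratio of the library labelled HIPK2 shRNA over the scramble library is shown on a log axis, with black points for CPM ratios, bars for their 95% counting intervals, and squares for ratios of the authors' TPM. The open triangle is the value of 5.74 for BAMBI, set against a floor of 3 counts in the scramble library, and dotted lines mark 2-fold. The whole interval of BMP7, from 4.24 to 10.5, lies beyond 2-fold, and the CPM interval of ID2 runs from 1.08 to 47.6.

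The ID genes encode helix-loop-helix proteins that lack a DNA-binding region and hold E proteins in inactive pairs. ID3 (ENSG00000117318, chromosome 1, 23557918 to 23559794, minus strand) was the most abundant of the 10 genes, with 3851 and 4426 counts, or 140.4 CPM (136.0 to 144.9) and 163.6 CPM (158.8 to 168.5). The library labelled HIPK2 shRNA had 1.17 times the scramble level (1.12 to 1.22). ID1 (ENSG00000125968, chromosome 20, 31605283 to 31606515, plus strand) had 1559 and 2702 counts, or 56.8 CPM (54.0 to 59.7) and 99.9 CPM (96.1 to 103.7). For both genes the library labelled HIPK2 shRNA was the high one and the intervals do not overlap. The log2 ratio of ID1, 0.80, was under 2-fold, and 5.64% of the genes at 1 CPM or more had a higher one. In TPM the ratios were 1.87 for ID1 and 1.25 for ID3, and the implied lengths of both differed by under 1% between libraries.

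ID1 gained on ID3 within the family. ID1 gave 28.8% (27.6 to 30.0) of the 5412 ID counts in the scramble library and 37.9% (36.7 to 39.0) of 7138 in the library labelled HIPK2 shRNA. Per length, ID3 had 1.98 times the TPM of ID1 in the scramble library and 1.32 times in the other. ID2 (chromosome 2, 8678845 to 8684453, plus strand), the family member best known from lymphoid and neural cells, had 2 counts in the scramble library and 10 in the other. Its CPM ratio was 5.07, with a counting interval of 1.08 to 47.6, and at 0.370 CPM it stayed far below its relatives. ID2 also shares 38 exon bases with the antisense gene ID2-AS1, and no source used here says whether the counting used strand. ID4, also singled out after its values were seen, had 0 counts in both libraries.

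**Figure D3:**
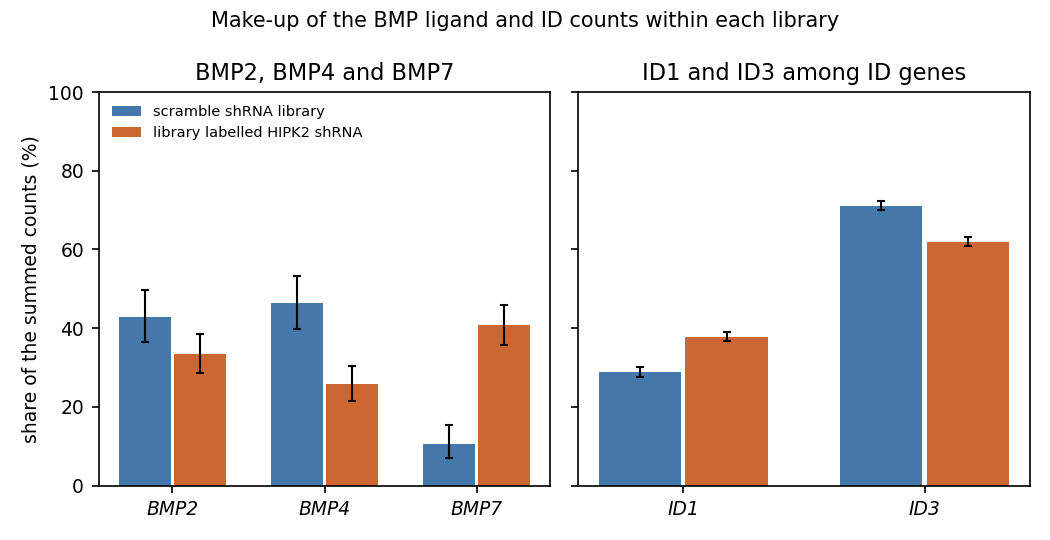
Bars give the percentage of the summed counts of BMP2, BMP4 and BMP7 (left) or of ID1, ID2 and ID3 (right) that came from the gene named below, from 0 to 100%, with 95% Clopper-Pearson intervals. BMP7 goes from 10.6% in the scramble library to 40.8% in the library labelled HIPK2 shRNA, and ID1 from 28.8% to 37.9%. ID2, at 12 counts in all, is not drawn.

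The bases upstream of ID1 are shown because it had the largest difference in CPM among the 10. The stretch is chr20:31605039-31605288, plus strand, GRCh38.p14, the 250 bases before the RefSeq start site, and capitals mark TATAAA, which begins 31 bases before that site.
ID1: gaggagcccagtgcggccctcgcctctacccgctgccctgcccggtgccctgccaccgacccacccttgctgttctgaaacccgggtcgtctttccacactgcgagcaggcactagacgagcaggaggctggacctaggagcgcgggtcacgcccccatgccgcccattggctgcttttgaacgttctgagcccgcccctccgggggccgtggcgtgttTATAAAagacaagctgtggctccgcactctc
RefSeq windows were found for 8 of the 10 genes, 12 windows in all. BMP2 and BMP7 had none. TATAAA, searched on the gene's strand, was in 3 of the 12 windows and in 6.80% of all 35116 windows of this length. The other letters searched, on both strands, were GGCGCC, a GC-rich element bound by SMAD1 and SMAD5, and the SMAD elements GTCTAGAC and CAGACA. None of these was in the windows of ID1, ID2 or ID3, which says only that these letters are not there. CAGACA was in 1 of the 12 windows, of BMP4, and in 13.6% of all windows. A match describes letters only and is not evidence of binding.

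The feedback inhibitors were the least abundant group. SMAD6 (ENSG00000137834, chromosome 15, 66702228 to 66782848, plus strand), which blocks mainly BMP receptors and SMAD1, had 15 counts in the scramble library against 35 in the library labelled HIPK2 shRNA. The levels were 0.547 CPM (0.306 to 0.902) and 1.29 CPM (0.901 to 1.80), whose intervals just touch, a ratio of 2.37 (1.26 to 4.66). SMAD7 (ENSG00000101665, chromosome 18, 48919853 to 48950711, minus strand), which blocks both TGF-beta or activin and BMP receptors, had 37 and 25 counts, or 1.35 and 0.924 CPM. It was lower in the library labelled HIPK2 shRNA, but its ratio of 0.685 (0.395 to 1.17) was within counting error. SMAD6 gave 28.8% (17.1 to 43.1) of the 52 SMAD6 and SMAD7 counts in the scramble library and 58.3% (44.9 to 70.9) of 60 in the other.

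BAMBI (ENSG00000095739, chromosome 10, 28677342 to 28682939, plus strand), a membrane pseudoreceptor that lacks the kinase domain, had 0 counts in the scramble library. The exact Poisson upper limit there is 0.134 CPM, and a floor of 3 counts is 0.109 CPM. In the library labelled HIPK2 shRNA BAMBI had 17 counts, or 0.628 CPM (0.366 to 1.01). Set against a floor of 3 counts in the scramble library, it was 5.74-fold higher, and the counting interval of its ratio begins at 4.18. Its level stayed low in both.

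Bases upstream of the RefSeq start sites of SMAD6 and BAMBI are shown because SMAD letters were found there. The SMAD6 stretch is chr15:66701986-66702235, plus strand, GRCh38.p14, with the palindrome GTCTAGAC in capitals, which begins 12 bases before the RefSeq start site. The BAMBI stretch, the first part of its window, is chr10:28677271-28677349, plus strand, GRCh38.p14, with 3 copies of GGCGCC in capitals, beginning 209, 196 and 181 bases before the RefSeq start site. The deposited gene starts, 66702228 for SMAD6 and 28677342 for BAMBI, lie before the RefSeq sites. The SMAD6 palindrome (66702224 to 66702231) and the last BAMBI copy (28677340 to 28677345) run across them. The BAMBI stretch was cut just past the deposited start.
SMAD6: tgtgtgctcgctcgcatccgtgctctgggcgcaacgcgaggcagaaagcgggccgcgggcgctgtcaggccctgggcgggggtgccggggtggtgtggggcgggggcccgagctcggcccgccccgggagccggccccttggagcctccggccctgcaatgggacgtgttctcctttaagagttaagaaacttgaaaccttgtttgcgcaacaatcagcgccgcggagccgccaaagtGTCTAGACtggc
BAMBI: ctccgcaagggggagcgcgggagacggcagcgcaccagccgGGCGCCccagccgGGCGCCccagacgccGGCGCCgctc
GTCTAGAC was in 64 of the 35116 windows (0.182%) and in 1 of the 12, that of SMAD6. GGCGCC was in 16.4% of all windows and in 2 of the 12, those of BAMBI and BMP4. The window of SMAD6 with its palindrome and that of BAMBI with its GC-rich copies belong to genes of low level in both libraries.

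Levels were ordered between genes in TPM, with counting intervals. In the scramble library ID3 (157 TPM) and ID1 (79.2 TPM) led, and BMP4 (3.41 TPM, 2.79 to 4.12) and INHBA (2.60 TPM, 2.31 to 2.91) overlapped in their intervals. BMP2 at 1.37 TPM and SMAD7 at 0.655 TPM each stood apart from their neighbours. BMP7, SMAD6 and ID2 followed at 0.303, 0.214 and 0.0499 TPM, each overlapping the next, with BAMBI at 0. In the library labelled HIPK2 shRNA ID3 (196 TPM) and ID1 (148 TPM) again led. BMP4, BMP7, BMP2 and INHBA lay between 2.85 and 1.85 TPM, each overlapping the next. SMAD6, BAMBI, SMAD7 and ID2 lay between 0.505 and 0.269 TPM, again with each overlapping the next. INHBA was thus in the fourth place and then the sixth, and BMP7 in the seventh and then the fourth, but each overlapped a neighbour in both libraries.

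**Figure D4:**
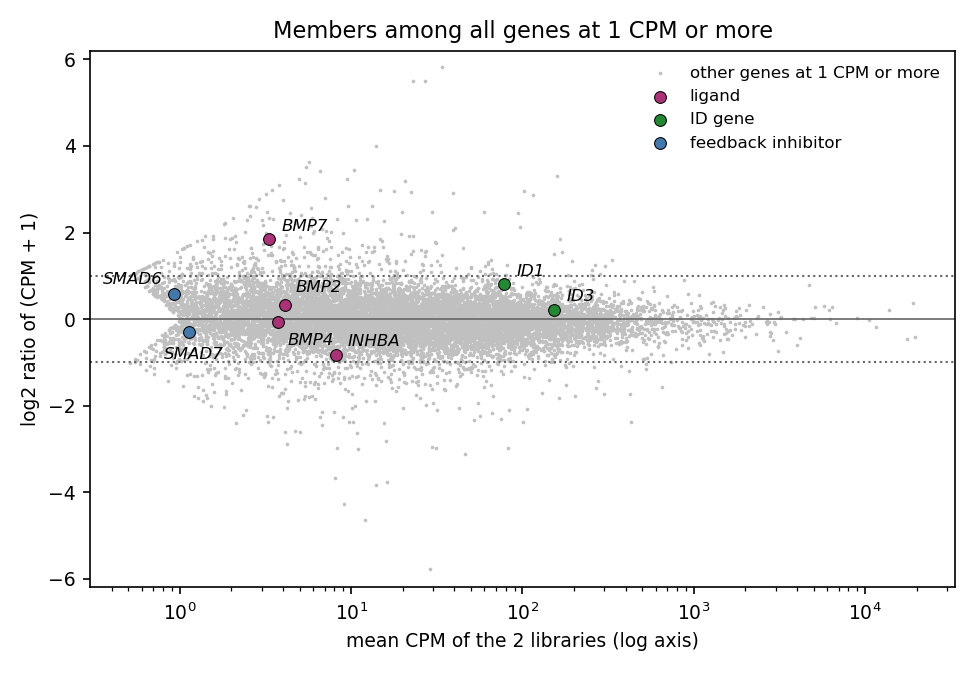
Each grey point is a gene that reached 1 CPM in either library, placed by mean CPM (log axis) and by log2 ratio of (CPM + 1), and coloured points are the 8 of the 10 genes that reach this level. Dotted lines mark log2 ratios of 1 and -1. BMP7 at 1.84 is the single coloured point outside them, and ID1 (0.80) and INHBA (-0.82) are close to them.

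The rest of the pathway was taken from 7 lists of 91 genes, chosen by function but with earlier results of these data known. Of the 46 genes at 1 CPM or more, 22 were higher and 24 lower in the library labelled HIPK2 shRNA, with a median log2 ratio of -0.055. By the rule of size 2 were past 2-fold higher, RUNX3 and SKIL, and 1 past 2-fold lower, FST. In TPM the 2 higher genes were RUNX3 (log2 ratio of TPM + 1 of 1.13) and SMAD2 (1.55), in place of SKIL (0.16). Among 46 genes these counts are close to the shares over all genes given above.

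Among 23 other ligands 5 reached 1 CPM, 2 higher and 3 lower, with a median log2 ratio of -0.56. INHBB and INHBE passed only in the scramble library and BMP8B only in the other, so these 3 had to differ in that direction and the median, which is the value of INHBE, was set by them. The most abundant was GDF15, a divergent stress-induced member of the superfamily, at 91.3 and 51.8 CPM, 1.76-fold lower (1.65 to 1.88) in the latter library. GDF11, a ligand of activin receptors, was at 9.92 and 10.3 CPM, a ratio of 1.04 (0.877 to 1.23), and its exons overlap SARNP on the opposite strand. INHBB, which encodes the other main activin chain and was singled out after its values were seen, had 34 and 8 counts. It was 4.19-fold lower (1.90 to 10.5), on the same side as INHBA, although at 1.24 CPM or less its log2 ratio of -0.79 stayed under 2-fold. In 13 of the 23 ligand genes both libraries had 0 counts.

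Among 14 receptors and co-receptors 7 reached 1 CPM, 4 higher and 3 lower, with log2 ratios from -0.48 to 0.83. ACVR1B, the activin type I receptor, was at 28.03 and 36.5 CPM, 1.30 times higher (1.18 to 1.43). The BMP co-receptor gene RGMB was at 21.0 and 14.8 CPM, 1.42-fold lower (1.25 to 1.62), but 2 antisense genes overlap its exons. Of receptors singled out after their values were seen, ACVR2B, a type II receptor for activins and some BMPs, had 28 and 70 counts, a ratio of 2.53 (1.61 to 4.08), and its relative ACVR2A had 55 and 47 counts, a ratio of 0.866 (0.574 to 1.30). The BMP type I receptor genes had CPM ratios on both sides of 1. BMPR1A had a ratio of 1.23 (1.002 to 1.52) and ACVR1 one of 0.884 (0.753 to 1.04), within counting error. In TPM ACVR1 went the other way, at 6.07 and 6.96, a ratio of 1.15. BMPR1B had 10 and 0 counts, 3.29-fold lower against a floor of 3 counts, with a counting interval that begins at 2.21-fold lower. The type II receptor gene BMPR2 had a ratio of 1.39 (1.09 to 1.78).

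All signalling SMADs but SMAD9 reached 1 CPM, and 0 of the 5 passed 2-fold. SMAD3, which activin and TGF-beta receptors activate, was far above the rest at 211.4 and 197.0 CPM, a ratio of 0.932 (0.898 to 0.967). SMAD2 had 320 and 302 counts, a ratio of 0.957 (0.815 to 1.12), but 2.51 and 9.25 in the deposited TPM. Its implied transcript length was 7775 bases in the scramble library and 2155 bases in the other. Counts and TPM of SMAD2 therefore give different answers. SMAD5, a BMP SMAD singled out after its values were seen, was at 7.47 and 11.5 CPM, 1.54 times higher (1.29 to 1.84), and an antisense gene overlaps its exons. SMAD1, singled out likewise, had 61 and 65 counts, a ratio of 1.08 (0.750 to 1.56), but 1.48 and 2.63 in TPM, a ratio of 1.78.

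The secreted antagonists held the one pathway gene past 2-fold lower. FST (ENSG00000134363), which encodes follistatin, a tight binder of activin, had 2466 counts in the scramble library against 799 in the library labelled HIPK2 shRNA. That is 89.9 CPM (86.4 to 93.5) and 29.5 CPM (27.5 to 31.6), 3.04-fold lower (2.81 to 3.30), and 63.3 and 24.9 in TPM. Its log2 ratio was -1.57. INHBA and its binder FST were thus both lower. Because FST differed more, the TPM of FST over that of INHBA was 24.4 in the scramble library and 13.5 in the other. INHBA gave 10.6% (9.46 to 11.8) and 15.9% (13.6 to 18.4) of the summed INHBA and FST counts. NBL1, a BMP antagonist of the DAN family, was at 106.0 and 77.6 CPM, but shares exons with the read-through gene MINOS1-NBL1. Of 19 antagonists 7 reached 1 CPM, 2 higher and 5 lower, with a median log2 ratio of -0.44. NOG, which encodes the BMP antagonist noggin and was singled out after its values were seen, had 2 and 4 counts.

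Among 15 intracellular regulators 14 reached 1 CPM, 7 higher and 7 lower, with a median log2 ratio of 0.0056. SKIL, a nuclear repressor of SMADs, had 37 and 102 counts, 2.79 times higher (1.90 to 4.19), with a log2 ratio of 1.02. In TPM SKIL was 0.595 and 0.781, under 2-fold, and its implied length differed by 2.27 times. SKI, its relative, was at 67.5 and 60.2 CPM, a ratio of 0.891 (0.833 to 0.953). NEDD4L, a ubiquitin ligase that acts on activated SMAD2 and SMAD3, was at 65.5 and 38.2 CPM, 1.72-fold lower (1.59 to 1.86), but 25.9 and 24.5 in TPM.

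Of 11 other genes known to be induced by BMP 6 reached 1 CPM, 3 higher and 3 lower. RUNX3 and DLX3 did so only in the library labelled HIPK2 shRNA and so had to be higher. RUNX3, a transcription factor downstream of TGF-beta and BMP, had 21 and 121 counts, or 0.766 and 4.47 CPM, 5.84 times higher (3.66 to 9.78) in the second library. MSX2, a homeobox target of BMP, had 107 and 194 counts, 1.84 times higher (1.44 to 2.35). RUNX2, the relative of RUNX3 known from bone formation, was at 7.91 and 4.58 CPM, 1.73-fold lower (1.38 to 2.17).

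The E proteins that ID proteins hold were abundant in part. TCF3 was at 62.4 and 70.8 CPM, a ratio of 1.13 (1.06 to 1.21), and TCF12 at 8.02 and 13.0 CPM, a ratio of 1.63 (1.37 to 1.93). TCF4, the other list member, had 10 counts in each library and was named after these were seen.

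**Figure D5:**
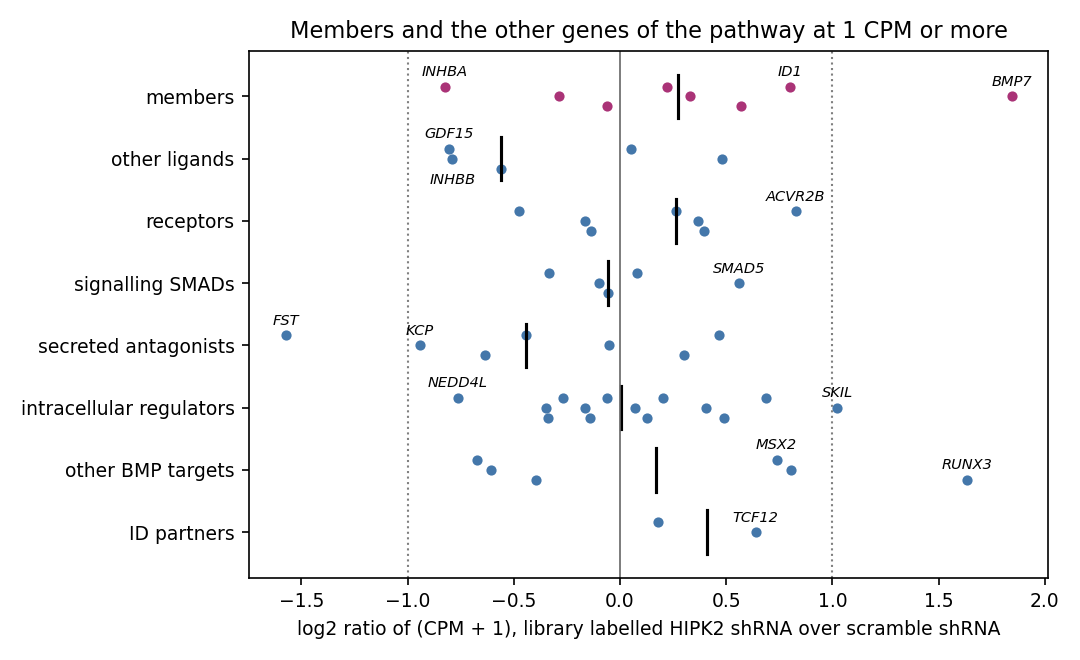
Each point is a gene that reached 1 CPM in either library, placed by its log2 ratio of (CPM + 1) and by its list, with a black bar at the list median and dotted lines at 1 and -1. Vertical offsets within a list have no meaning, and the 10 genes described here form the top row, of which 8 are drawn. BMP7, SKIL and RUNX3 lie beyond the right line and FST beyond the left.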

How the data were processed

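RNA of 2 Cal-27 cultures was sequenced. Total RNA was extracted with TRIzol and libraries were sequenced as paired-end reads of 150 bp, per the labels' protocols. FastQC, TopHat2 2.1.1 and GRCh38 (hg38) are named in the submitters' processing notes. For the counting tool, its annotation and its use of strand, no source used here gives a name. Besides the overlaps given above, genes on the opposite strand share exon bases with SMAD1, SMAD3, ACVR2A, NEDD4L, BMP8B, CDH1 and TCF4. Whether their counts include reads of those genes was not tested.

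Each gene has 3 values, a count, a TPM and an FPKM, per the file headers. The deposited counts are whole numbers with no normalization. The TPM as deposited had a sum of 999991 in the scramble library. The deposited FPKM was used here only with the count, for the transcript length that it implies.

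Counts were converted to CPM after TMM scaling (factors 0.977 and 1.02; edgeR 4.0.16, R 4.3.3), without a test, since with single libraries no degrees of freedom remain. The pseudocount was 1 CPM and genes counted from 1 CPM in at least 1 library. Ratios carry 95% exact (Clopper-Pearson) intervals conditional on the summed counts, and levels exact Poisson intervals, from scipy 1.17.1. TPM intervals scale the Poisson interval of the count. For a fold against a count of 0, a floor of 3 counts was used. The rule of size and the intervals were tried on simulated counts that held counting noise only, scaled by library totals. Known differences were given there to the more abundant genes alone. That trial therefore cannot tell how they do with differences between cultures or with the lowest genes. Other scalings (library totals, upper quartile, DESeq2 1.42.0 size factors), pseudocounts, filters and fold sizes, TPM, and a length and GC correction were tried.

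The 10 genes and the lists were chosen with earlier results of these data known. Named are the 10 genes, HIPK2, and in each list every gene past 2-fold and the 2 with the highest mean CPM. Others are marked as singled out, or are markers. BMPR1A, ACVR1, BMPR1B, BMPR2, INHBE, BMP8B and DLX3 fit none of these and were also named after their values were seen. Positions are as in the files, and matched GENCODE 29 in start and end for 8 of the 10 genes. Upstream sequences are from RefSeq on GRCh38.p14.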

Additional observations from a re-analysis of the deposited data

How the results depend on the processing

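No paired analysis was possible because a group has 1 library, and for that reason no library was left out either. A correction by transcript length and GC share, taken over 25 bins, and the alternatives for the pathway lists were chosen after seeing the data. Under 7 other settings (3 scalings, 2 pseudocounts, TPM and the correction) the log2 ratios of the 10 genes gave 70 values. Of these 54 stayed within the counting interval of the reported value, 16 moved outside it, and 1 changed sign, that of BMP4, from -0.063 to 0.11 with the correction. The log2 ratio of BMP7 ranged from 0.87 (pseudocount 5) to 2.58 (pseudocount 0.1), that of ID1 from 0.76 to 0.90 and that of INHBA from -0.92 to -0.34 (TPM). The count of 1 gene past 2-fold higher was 2 with a pseudocount of 0.1 (BMP7 and SMAD6), 0 with one of 5 and 0 with a filter at 10 CPM. Over all genes these settings gave 676, 124 and 159 past 2-fold higher, against 385 as reported. At 1.5-fold the count among the 10 was 2 higher (BMP7 and ID1) and 1 lower (INHBA). There 10.6% and 9.96% of all genes at 1 CPM or more were past that size. At 4-fold 0 of the 10 were past it either way, against 62 higher and 48 lower over all genes. The median of 0.27 ranged from 0.18 to 0.34. For the pathway lists, the reported counts were 2 higher and 1 lower. A pseudocount of 0.1 gave 4 and 4, one of 5 gave 0 and 1, as did a filter at 10 CPM, 1.5-fold gave 7 and 8, 4-fold 0 and 0, and the correction 1 and 2. Over all genes 385 were higher and 339 lower as reported. The pseudocount of 0.1 gave 676 and 515 there, that of 5 gave 124 and 161, and the filter 159 and 217. For 1.5-fold the counts over all genes were 1254 and 1176, for 4-fold 62 and 48, and for the correction 354 and 329. HIPK2 had a log2 ratio of 0.54 at the pseudocount of 5 and of -0.49 on the TPM scale, against 0.85 as reported. That of SKIL, 1.02, was 0.16 in TPM. Apart from settings that only shift a threshold, a filter or a pseudocount, the cause was not tested. The precision of low genes is limited by depth, as 1 count is worth 0.0365 CPM in the scramble library and 0.037 CPM in the other, and ID2, SMAD6, SMAD7 and BAMBI rest on 62 counts or fewer over both libraries.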

Other observations

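Counts and TPM disagreed for several genes of the pathway through the transcript length they imply. That length differed by more than a factor of 1.25 between the libraries for 1362 of 11760 genes at 1 CPM or more. Among SMAD genes, chosen like PPM1A after their values were seen, the ratio of implied lengths, library labelled HIPK2 shRNA over scramble, was 0.277 for SMAD2, 0.649 for SMAD1 and 0.717 for SMAD4, and 1.05 for SMAD3. The regulators PPM1A, a phosphatase of SMADs, and NEDD4L had ratios of 0.613 and 0.657, and SKIL one of 2.27. HIPK2 had a ratio of 4.0. Of the 10 genes, INHBA (0.788) and BMP4 (1.21) were farthest from 1, and BMP2, ID1, ID2 and ID3 were within 1% of it. Which transcripts lie behind these lengths was not analysed here.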
